A study of Homo sapiens with 6 samples.

Results

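Cyclin-dependent kinases drive a cell through its division cycle, and a small set of inhibitor proteins holds them back. The inhibitors fall into 2 families. Proteins of the CIP/KIP family (p21, p27 and p57, from CDKN1A, CDKN1B and CDKN1C) bind complexes of cyclin and kinase, mainly those of CDK2. Proteins of the INK4 family (p16 and p18, from CDKN2A and CDKN2C) are built of ankyrin repeats and bind CDK4 and CDK6. CDKN1A is a classical target of p53, and CDKN1A and CDKN2A are the inhibitors most often followed when cells stop dividing for good. These 5 genes were taken by symbol from the deposited table, and all 5 of 5 were found there, 3 of CIP/KIP and 2 of INK4, among 1305 genes.

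The 6 libraries came from NCI-H292, an established line of human lung cancer cells. Of these, 3 were from cells given the solvent DMSO at a dilution of 1 in 1000 and 3 from cells given mitoxantrone at 50 nM, both for 48 hours. Mitoxantrone is a cytotoxic drug that poisons topoisomerase II and so breaks DNA; the series title places the work in the study of senescence, a durable arrest of the cell cycle. The labels do not say whether the libraries came from separate cultures, so each p-value is set against the spread between these libraries only, and that spread may be technical. The libraries held 14762537 to 17817799 assigned reads, solved from FPKM, counts and lengths. The genes of the table took 3.97 to 4.04% of these with DMSO and 6.08 to 6.2% with mitoxantrone. In the authors' deposited table no gene changed by less than 1.000 on the log2 scale or had an adjusted p above 0.043, so the 5 genes were already selected as changed on these same libraries. Genes outside the table were not analysed here. Of 6 epithelial markers the table held KRT8 and KRT18, with mean FPKM of 409 and 416 with DMSO and 1093 and 909 with mitoxantrone. Their log2 fold changes were 1.48 and 1.19, which did not pass with DESeq2 size factors over the table alone (adjusted p 0.36 and 1, edgeR test; 2.5e-18 to 0.36 and 1.4e-10 to 1 over all alternatives); with TMM factors over the table that of KRT18 did not pass either (adjusted p 0.22). Of 5 markers of leukocytes, 5 of fibroblasts and 4 of endothelium it held CD14, COL1A1 and CDH5, with mean FPKM of 1.95, 2.26 and 4.81 with DMSO and 0.833, 0.873 and 2.15 with mitoxantrone; their part in the results was not tested. In bulk RNA, fewer cells of a kind and less RNA per cell cannot be told apart, and values scaled to a library do not give the RNA content of a cell.

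Against DMSO, CDKN1A was the 1 inhibitor that rose with mitoxantrone, 5.87-fold. The other 4 fell: CDKN1B 2.05-fold, CDKN2A 2.78-fold, CDKN2C 4.67-fold and CDKN1C, which was barely expressed, 10.3-fold. After Benjamini-Hochberg adjustment of edgeR's quasi-likelihood p-values, 1 of the 5 passed as higher, where 56.7% of all genes in the table did, and 4 of the 5 passed as lower, where 35.3% did. The treatment groups did not overlap for any of the 5 genes, which held as higher for 60.1% of the table and as lower for 38.5%. The median log2 fold change of the 5 genes was -1.48, against 1.26 over the table.

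The sequences just upstream of the starts of these genes are shown for the gene that rose, for the well-expressed gene that fell furthest, and for both starts of CDKN2A, whose transcripts encode different proteins but were counted as 1 gene. They come from RefSeq on GRCh38.p14, read 5′ to 3′ in the direction of transcription and end at the base before the start. Of the 5 genes, 4 had at least 1 such window of 250 bases, 7 windows in all. Capitals mark GGGCGG or its reverse complement CCGCCC, the GC box that Sp1 family factors bind; overlapping matches run together. The windows lie at chr6:36678464-36678713 on the plus strand (CDKN1A), chr1:50968456-50968705 on the plus strand (CDKN2C), chr9:21995325-21995574 on the minus strand (CDKN2A, upstream start, which gives the ARF transcript) and chr9:21974858-21975107 on the minus strand (CDKN2A, downstream start, which gives the p16 transcript). 
CDKN1A: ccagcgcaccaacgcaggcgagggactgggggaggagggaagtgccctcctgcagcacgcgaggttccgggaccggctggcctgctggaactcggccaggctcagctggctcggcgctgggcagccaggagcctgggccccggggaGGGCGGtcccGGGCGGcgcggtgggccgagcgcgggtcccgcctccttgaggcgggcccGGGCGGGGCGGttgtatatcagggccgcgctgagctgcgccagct
CDKN2C: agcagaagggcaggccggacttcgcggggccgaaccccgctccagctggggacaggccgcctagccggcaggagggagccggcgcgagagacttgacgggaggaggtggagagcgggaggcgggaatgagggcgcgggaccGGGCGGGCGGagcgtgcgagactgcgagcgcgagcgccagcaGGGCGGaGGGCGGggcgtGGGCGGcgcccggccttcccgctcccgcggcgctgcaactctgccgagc
CDKN2A, upstream start: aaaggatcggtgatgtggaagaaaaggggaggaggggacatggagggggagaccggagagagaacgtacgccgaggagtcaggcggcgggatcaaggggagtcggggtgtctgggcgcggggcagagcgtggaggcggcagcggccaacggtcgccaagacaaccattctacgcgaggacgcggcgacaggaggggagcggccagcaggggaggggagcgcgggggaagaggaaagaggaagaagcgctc
CDKN2A, downstream start: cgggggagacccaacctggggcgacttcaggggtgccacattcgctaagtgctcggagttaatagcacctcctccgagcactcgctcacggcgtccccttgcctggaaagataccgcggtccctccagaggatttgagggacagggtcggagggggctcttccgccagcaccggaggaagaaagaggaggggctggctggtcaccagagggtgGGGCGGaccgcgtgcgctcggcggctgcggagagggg

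The GC box was found 4 times in the CDKN1A window and 5 times in the CDKN2C window shown. That window is 1 of 3 for CDKN2C and was chosen after the counts were seen; the others held 0 and 1. The downstream window of CDKN2A held 1 and the upstream window 0, and the CDKN1B window held 1. At least 1 GC box was present in 42.6% of 35116 windows of the same length. CCAAT, searched on both strands like all motifs, was found 2 times in the CDKN1B window and 1 time in 1 CDKN2C window, and in 32% of all windows. The TATA box TATAAA was in none of the 7 windows and in 10.7% of all windows. The cell cycle element TTTGAA was also in none of the 7, against 13.3% of all, and its variant TTCGAA in none against 1.19%. The E2F site TTTCGCGC was in none of the 7 and in 0.439% of all windows. A match is a description of the letters, not of binding.

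CDKN1A encodes p21, which inhibits cyclin-CDK2 complexes and also binds the replication clamp PCNA. It had 3317, 3400 and 3790 reads in the DMSO libraries and 16924, 18266 and 16969 in the mitoxantrone libraries. Divided by the authors' size factors, these were 2850.2, 3503 and 3247 normalized reads with DMSO and 19137, 19033 and 18214 with mitoxantrone. Every mitoxantrone library lay far above every DMSO library, the lowest of the former being 5.2 times the highest of the latter. The means were 3200.2 ± 329 (SD, n = 3) and 18794 ± 506 (SD, n = 3) normalized reads. The log2 fold change was 2.55, its standard error 0.15 and its adjusted p 2.8e-08 (edgeR quasi-likelihood test). In the authors' deposited table its log2 fold change was 2.51, and its p-value was number 4 of the whole table in order of size. By fold change it stood at number 49 of the genes that rose in the authors' deposited table and at number 174 in the fit made here, so other genes of the table rose by a larger factor in both. The ranks come from different fits and are not on the same measure. Of all assigned reads, CDKN1A took 188, 215 and 213 CPM with DMSO and 1146, 1166 and 1144 CPM with mitoxantrone.

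CDKN1B encodes p27, the CIP/KIP inhibitor that is typically abundant in resting cells and removed by the ubiquitin ligase subunit SKP2 as cells enter S phase. It had 1125, 1169 and 1124 normalized reads with DMSO and 569, 546 and 555 with mitoxantrone. The level with mitoxantrone was close to 1 in 2 of the DMSO level in every library, and the replicates were close, with a coefficient of variation of normalized reads of 2.28% with DMSO and 2.06% with mitoxantrone. The log2 fold change was -1.03 with a standard error of 0.12 (adjusted p 2.4e-05, edgeR quasi-likelihood test). Its value in the authors' deposited table, -1.016, was just inside the smallest absolute change there, 1.000; genes with smaller changes were not analysed here.

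CDKN1C encodes p57, an imprinted gene with a role in embryonic growth. It had 26, 36 and 64 reads with DMSO and 1, 4 and 5 with mitoxantrone, or 22.3, 37.1 and 54.8 against 1.13, 4.17 and 5.37 normalized reads. The DMSO libraries differed from one another more than for any other of the 5 genes, with a coefficient of variation of 42.7%, and the lowest of them still lay 4.16 times above the highest mitoxantrone library. The log2 fold change was -3.36 with a standard error of 0.51 (adjusted p 2.0e-04, edgeR quasi-likelihood test). Pooled over libraries the 126 reads with DMSO and 10 with mitoxantrone gave a 10.6-fold difference after scaling, with an exact 95% interval of 5.57 to 22.6 that covers counting error only. The authors' deposited log2 fold change was smaller, -2.29, while DESeq2 fitted here with the authors' size factors gave -3.41. The reason for this difference was not tested. On log2(FPKM + 1), where the added 1 exceeds most of its FPKM values, limma gave -0.82, so the size of the fall of this gene is poorly fixed while its direction was the same in every alternative that could be fitted.

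**Figure D1:**
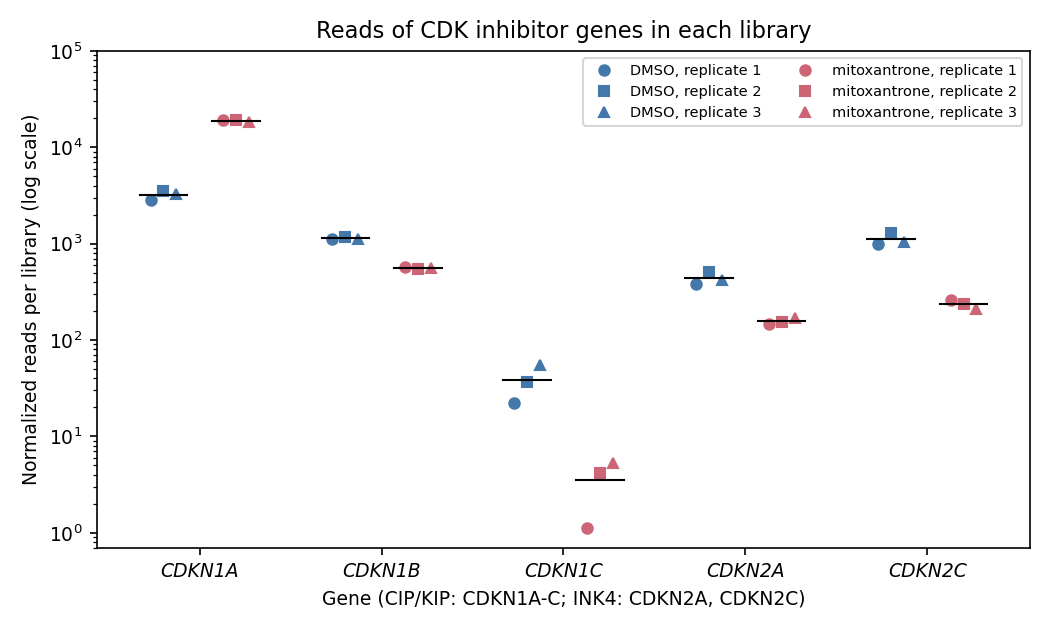
Normalized reads on a log axis for each of the 5 inhibitor genes in each library; blue symbols are DMSO and red symbols mitoxantrone, the symbol shape gives the replicate and the black lines are group means (3 libraries each). CDKN1A is higher in all 3 mitoxantrone libraries and the other 4 genes are lower, with no overlap between the groups.

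Of the INK4 genes, CDKN2A encodes p16 and, from another start and reading frame, ARF, which binds the p53 ubiquitin ligase MDM2. The table counts all transcripts of the gene together, so the levels of p16 and ARF cannot be told apart. CDKN2A had 381, 511 and 415 normalized reads with DMSO and 145, 153 and 171 with mitoxantrone. All 3 mitoxantrone libraries were low and alike, and the lowest DMSO library was 2.23 times the highest of them. The log2 fold change was -1.48 with a standard error of 0.16 (adjusted p 7.4e-06, edgeR quasi-likelihood test).

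CDKN2C encodes p18, an INK4 inhibitor known as a brake on CDK4 and CDK6 in differentiating cells. It had 984, 1299 and 1029 normalized reads with DMSO and 262, 238 and 208 with mitoxantrone. The groups were further apart than those of CDKN2A, the lowest DMSO library being 3.75 times the highest mitoxantrone library. The log2 fold change was -2.22 with a standard error of 0.16 (adjusted p 9.3e-08, edgeR quasi-likelihood test). Among the genes with a negative change in the table, whose median was -1.51, CDKN2C stood at number 79 and CDKN2A at number 265 by fold change in the fit made here. By the fold changes of the authors' deposited table, which come from a different fit, they stood at numbers 22 and 147. Of the DMSO libraries, replicate 2 was the highest in normalized reads for both INK4 genes, as it was for CDKN1A and CDKN1B. On FPKM CDKN1B was lowest there, at 25.57 against 26.46 and 26.20 in replicates 1 and 3. Over the table replicate 2 was the highest DMSO library for 33.3% of genes and the lowest for 36%. Without that library the log2 fold changes were -1.35 for CDKN2A and -2.09 for CDKN2C, with both still past the threshold in the edgeR test.

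CDKN2D, which encodes p19 of the INK4 family, was also in the table and fell from 157 ± 25.2 to 67 ± 3.33 normalized reads (SD, n = 3 each), with a log2 fold change of -1.22. CDKN3, which encodes a phosphatase of CDK2 rather than a binding inhibitor, fell from 655 ± 109.5 to 295 ± 51.8 (SD, n = 3 each), a log2 fold change of -1.15. Of 9 other inhibitors and related genes these were the 2 in the table. Both passed as lower, where 35.3% of all genes in the table did. With them, all 3 INK4 genes of the table were lower with mitoxantrone.

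Levels of different genes were set side by side on FPKM, which divides by gene length. With DMSO the order was CDKN1A at 68.9 ± 4.96, CDKN1B at 26.1 ± 0.458, CDKN2C at 21.3 ± 2.4, CDKN2A at 6.34 ± 0.726 and CDKN1C at 0.947 ± 0.414 FPKM (SD, n = 3 each). With mitoxantrone the order was the same, with CDKN1A at 386 ± 4.05, CDKN1B at 12.1 ± 0.251, CDKN2C at 4.36 ± 0.401, CDKN2A at 2.18 ± 0.239 and CDKN1C at 0.0867 ± 0.0513 FPKM (SD, n = 3 each). No neighbours in either order overlapped, although CDKN1B and CDKN2C were close with DMSO (25.6 to 26.5 against 19.6 to 24.1 FPKM). The gap between CDKN1A and CDKN1B widened from 2.64-fold to 31.8-fold. The gene lengths in the table were 2985 bases for CDKN1A and 4400 for CDKN2A, and whether they fit the transcripts these cells make was not tested.

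The summed FPKM of the 5 genes was 116, 129.8 and 125 with DMSO and 403, 409 and 402 with mitoxantrone, a 3.28-fold rise in the mean that came from CDKN1A alone. The other 4 genes together fell 2.92-fold, from 54.7 ± 2.71 to 18.8 ± 0.212 FPKM (SD, n = 3 each), and the INK4 pair fell 4.23-fold. CDKN1A made up 54.7, 55.6 and 56.9% of the sum in the DMSO libraries and 95.3, 95.5 and 95.3% in the mitoxantrone libraries. CDKN1B went from 19.7 to 22.9% down to 2.91 to 3.08%, and CDKN2C from 16.2 to 18.5% down to 0.98 to 1.18%. Such shares compare transcripts within a library and do not depend on how libraries are scaled.

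**Figure D2:**
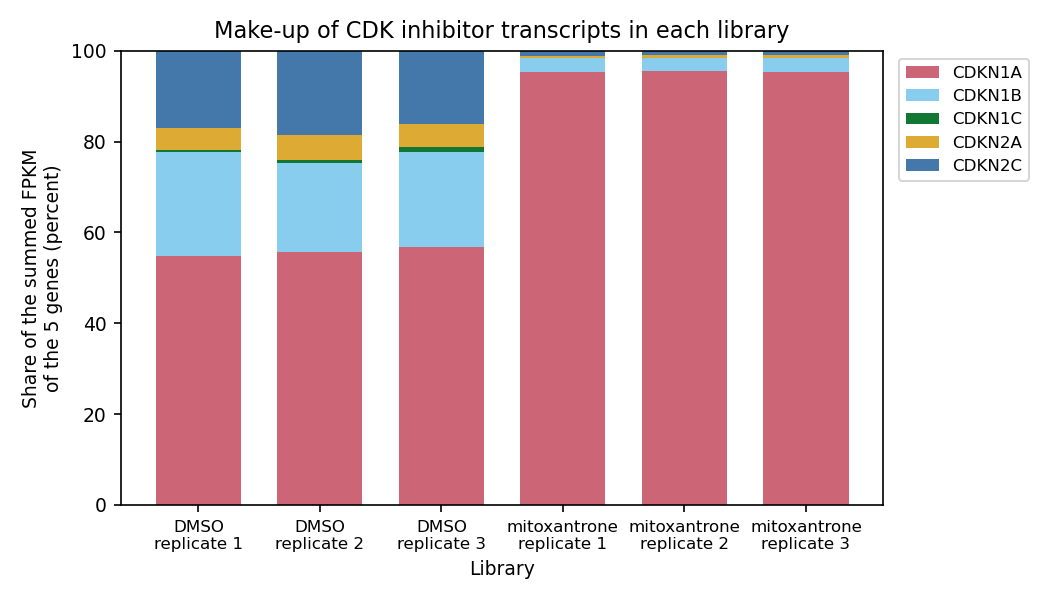
Share of each gene in the summed FPKM of the 5 inhibitor genes (percent, stacked) for each of the 6 libraries. CDKN1A takes 54.7 to 56.9% of the sum with DMSO and 95.3 to 95.5% with mitoxantrone. The share of each other gene is smaller with mitoxantrone, by unlike factors.

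Ratios within a library gave the same picture. The FPKM of CDKN1A was 2.39, 2.82 and 2.72 times that of CDKN1B with DMSO and 31.7, 32.8 and 30.9 times with mitoxantrone, a shift of 3.59 in the mean log2 ratio. Within the INK4 family the log2 ratio of CDKN2A to CDKN2C was -1.78, -1.75 and -1.72 with DMSO and -1.27, -1.04 and -0.69 with mitoxantrone. The ratio was nearly constant over the DMSO libraries and higher in all mitoxantrone libraries, a shift of 0.75, so CDKN2C lost more of its transcripts than CDKN2A in each of them. The shift of the log2 ratio of CDKN1A to CDKN1C, 6.09, rests on the 1, 4 and 5 reads of CDKN1C with mitoxantrone. No test was made on these ratios.

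The inhibitors act on cyclins, kinases and, through RB, on E2F factors. Of 12 cyclin genes 4 were in the table: the D-type cyclins CCND1 and CCND2, partners of CDK4 and CDK6, rose with log2 fold changes of 1.11 and 1.12, and CCNA2 and CCNB2, cyclins of S phase and mitosis, fell, with -1.10 and -1.22. With size factors computed over the table alone the rises of CCND1 and CCND2 were 0.42 and 0.43 with TMM factors and 0.12 each with DESeq2 factors, and neither passed (adjusted p 0.095 to 1, edgeR quasi-likelihood test; 7.2e-15 to 1 over all alternatives). None of 6 cell cycle kinase genes was in the table. Of 13 genes of the RB and E2F families, E2F1, E2F2 and E2F8 were in it, with log2 fold changes of -1.39, -2.14 and -1.87. All 3 passed as lower, where 35.3% of all genes in the table did. E2F1 went from 729.9 ± 187 to 278 ± 20.2 normalized reads (SD, n = 3 each).

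MYBL2 and FOXM1, which join the MuvB complex to switch on late cell cycle genes, were the 2 genes of 8 on that list in the table, with log2 fold changes of -1.52 and -1.16. Of 7 genes that set CDK phosphorylation, CDC25C, a phosphatase that activates CDK1, and WEE1, a kinase that inhibits it, both fell, with log2 fold changes of -1.75 and -1.20. Of 12 genes for turnover and partners of the inhibitors only CDC20, a mitotic activator of the anaphase-promoting complex, was in the table (-1.03). Of 15 proliferation genes 5 were in it and all 5 passed as lower, where 35.3% of all genes in the table did. Their log2 fold changes ran from -1.43 (MCM5) to -1.05 (TOP2A and AURKB), with -1.34 for MCM6 and -1.33 for MKI67. MKI67 did not pass with limma on FPKM (adjusted p 0.19 on log2(FPKM + 1), and 5.2e-09 to 0.19 over all alternatives). It had 9833, 3955 and 7853 normalized reads with DMSO, a coefficient of variation of 41.5%. The lowest of these was only 1.16 times the highest mitoxantrone library.

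Of 20 known regulators of the 5 genes 5 were in the table, of which 2 rose and 3 fell; the others were not analysed here. MDM2, which limits p53, rose from 2304 ± 293 to 9366 ± 614 normalized reads (SD, n = 3 each), a log2 fold change of 2.02. KLF4, a transcription factor known to act on CDKN1A, had 1.07, which did not pass with size factors over the table alone (0.38 with TMM and 0.08 with DESeq2 factors, adjusted p 0.7 and 1 in the edgeR test; 2.9e-05 to 1 over all alternatives). EZH2, a Polycomb methyltransferase known to silence CDKN2A, ETS2, a factor known to activate it, and ID1, which opposes that activation, fell, with -1.09, -1.09 and -1.15. EZH2 and CDKN2A were both lower with mitoxantrone. Of 12 further p53 targets linked to arrest 4 were in the table and all 4 passed as higher, where 56.7% of all genes in the table did. These 4 were PLK3 (2.08), ZMAT3 (1.64), BTG2 (1.41) and SESN2 (1.21). With DESeq2 factors over the table alone BTG2 and SESN2 did not pass (adjusted p 0.15 and 1, edgeR test, and 1.8e-21 to 0.15 and 2.0e-13 to 1 over all alternatives). Factors over the table shift log2 fold changes down over all its genes, by a median of -0.69 (TMM) or -0.99 (DESeq2).

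**Figure D3:**
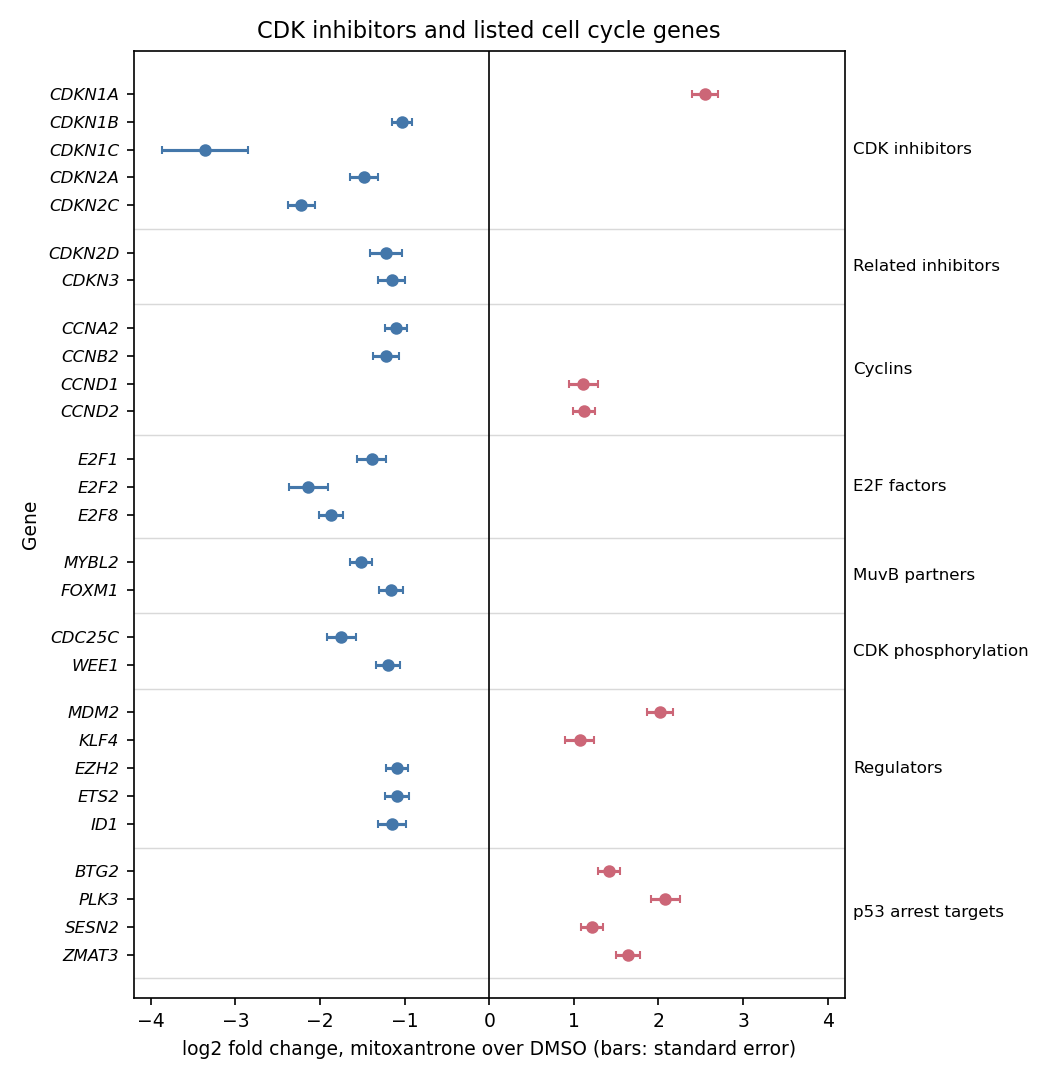
Log2 fold change of mitoxantrone over DMSO with its standard error (edgeR, 3 libraries per group) for the 5 inhibitor genes and the genes of 7 cell cycle lists that the table holds. CDKN1A stands at 2.55 with MDM2, the p53 arrest targets, KLF4 and D-type cyclins to its left but above 0, and the other inhibitors lie below 0 with the E2F factors.

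The genes of the table nearest to CDKN1A in pattern over the 6 libraries, by the root mean square difference of centred log2 normalized reads among 707 genes with a mean of at least 50, were RNASE7 (0.073), ENTPD3 (0.119) and CYGB (0.119), which had log2 fold changes of 2.48, 2.39 and 2.34. Nearest to CDKN2C were DUSP9 (0.116), NRARP (0.155) and MXD3 (0.157), with -2.21, -2.33 and -2.05. With 2 groups this measure mostly picks genes with a like fold change.

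In position, the table places CDKN1A on chromosome 6 from 36644305 to 36655116, CDKN1B on chromosome 12 from 12867992 to 12875305, CDKN1C on chromosome 11 from 2904443 to 2907111, CDKN2A on chromosome 9 from 21967751 to 21995300 and CDKN2C on chromosome 1 from 51426417 to 51440305. Its genome build is not given in the sources used here, and none of these starts was that of the gene in the GENCODE 29 annotation of GRCh38. In that annotation 341 exon bases of CDKN2A (7.88%) lie opposite the antisense gene CDKN2B-AS1 and 146 exon bases of CDKN1A (4.79%) opposite the long non-coding gene DINOL. The labels do not say whether strand was kept, so reads from these stretches cannot be assigned to either strand with certainty. No other gene shared exon bases with the 5.

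Other ways of processing did not turn the direction or end the call of any of the 5 genes. These genes were selected as changed on these same libraries, so keeping a call was likely beforehand. Size factors computed over the table alone treat a set selected as changed as if it were mostly unchanged and shift the median of all log2 fold changes by -0.69 (TMM) or -0.99 (DESeq2). With them CDKN1A had 1.87 and 1.56, and CDKN1B, the gene closest to the authors' limit, had -1.72 and -2.02. The split of all calls was 740 higher to 461 lower as reported, 366 to 512 with TMM factors and 219 to 512 with DESeq2 factors.

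**Figure D4:**
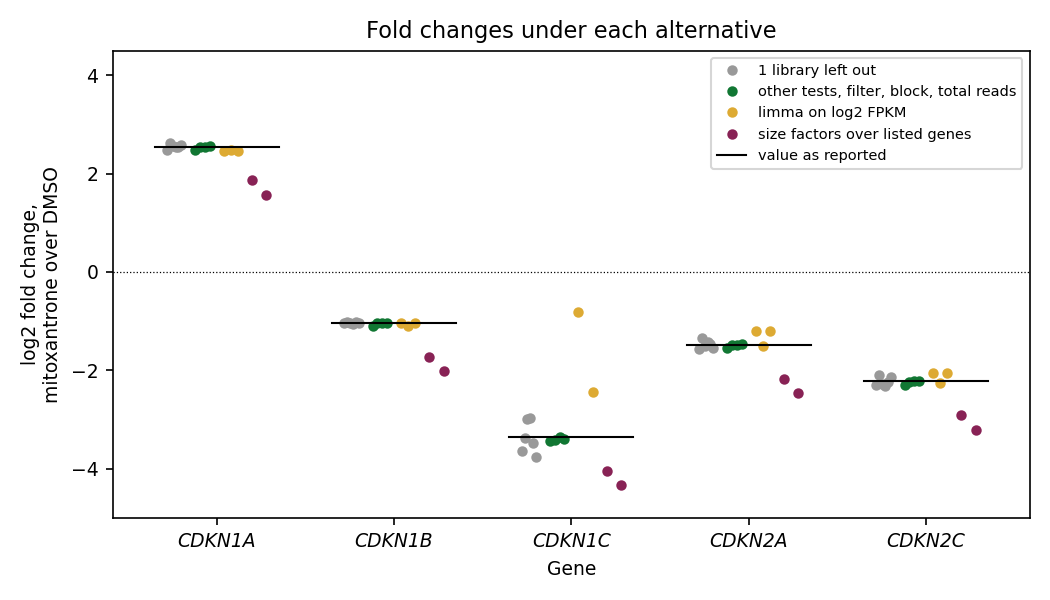
Log2 fold change of each inhibitor gene as reported (black line) and under each alternative (points: 1 library left out, other tests and scalings, limma on log2 FPKM, size factors over the genes of the table alone). CDKN1A stays above 0, from 1.56 to 2.62, and the other genes stay below 0; the widest spread is that of CDKN1C, from -4.34 to -0.82.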

How the data were processed

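Per the labels' protocols, both ends of each fragment were read over 150 bases in 6 libraries. The labels name both a poly(A) and an rRNA removal kit without saying which was used. Per the submitters' processing notes the tools were HISAT2 2.0.1, cutadapt 1.9.1, DESeq2, HTSeq 0.6.1 and Cufflinks 2.2.1. The genome build is not given in the sources used here, nor is the annotation. The authors deposited 1 table of 1305 selected genes with raw read counts, FPKM values, mean normalized counts (a signal value), log2 fold changes with standard errors, Wald scores and p-values, per the file headers. The authors' size factors (0.884 to 1.167) were solved from the counts and mean normalized counts, with a largest relative error of 5.0e-10, and library totals from FPKM, counts and lengths. The ratios of deposited p-values to adjusted p-values fell closest to whole ranks for 18313 genes tested.

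Counts of all 1305 genes were fitted with edgeR 4.0.16 (quasi-likelihood, R 4.3.3) on treatment with those size factors and no filter, and p-values were adjusted by Benjamini-Hochberg for 18313 tests at a threshold of 0.05. Since a gene could be ranked only against the others deposited, its adjusted p is at or above that of a full table. Dispersions were estimated from these selected genes only. Each standard error was obtained as the absolute log2 fold change over the square root of its F statistic. FPKM gave levels between genes, and CPM (counts over all assigned reads) the share of CDKN1A. The alternatives were other size factors, DESeq2 1.42.0, limma 3.58.1 on log2(FPKM + 1) and log2(FPKM + 0.1), filters on low values, adjustment over the listed genes, a replicate block, and each library left out. The members and lists were chosen with earlier results of these data known. Named genes are the members, all genes of a list in the table where these were 8 or fewer, otherwise the 4 largest rises and falls, and the 3 genes nearest in pattern to CDKN1A and to CDKN2C. Exact intervals are Clopper-Pearson. Libraries of 1 group differed beyond counting noise on average over genes, so none was taken as a repeat. The mean chi-square over genes was 3.05 to 29.01 across the pairs of libraries within a group. Columns of per-library values left unused numbered 0.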

Additional observations from a re-analysis of the deposited data

How the results depend on the processing

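All 5 genes kept their direction and their side of the threshold in each alternative that gave a value. These numbered 16 for each gene and 15 for CDKN1C, which a filter on FPKM of at least 1 removed. As the genes were selected as changed on these same libraries, this was likely beforehand. In the fit as reported 56.7% of the table passed as higher and 35.3% as lower. The share of the whole table that kept its call was not computed. Leaving out 1 library at a time gave log2 fold changes of 2.48 to 2.62 for CDKN1A, -1.05 to -1.01 for CDKN1B, -3.76 to -2.97 for CDKN1C, -1.56 to -1.35 for CDKN2A and -2.31 to -2.09 for CDKN2C. The largest adjusted p of any alternative was 0.023, for CDKN1C with limma on log2(FPKM + 1). No pairing by replicate number was seen, though 3 libraries per group cannot exclude it. The deviations of same-numbered libraries from their group means correlated at -0.44, -0.26 and 0.23, and not every library correlated best with its own number. With the replicate number as a block the log2 fold changes were 2.56, -1.03, -3.39, -1.47 and -2.22 for CDKN1A, CDKN1B, CDKN1C, CDKN2A and CDKN2C, and 736 genes of the table passed as higher and 463 as lower. Genes passing as higher numbered 366 with TMM and 219 with DESeq2 factors over the table; with limma and the filter on FPKM, which left fewer genes to test, 470 passed as higher and 306 as lower. As shares of summed reads in place of FPKM, CDKN1A had 54.1% with DMSO and 95.2% with mitoxantrone, CDKN1B 19.4% and 2.82%, CDKN2A 7.33% and 0.793% and CDKN2C 18.6% and 1.19%; these are not divided by length. With 1 added to FPKM the shift of the log2 ratio of CDKN1A to CDKN1C was 3.29, where 1 exceeds the FPKM of CDKN1C in every library but DMSO replicate 3. Depth limits CDKN1C alone among the 5, with 10 reads over the mitoxantrone libraries.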

Other observations

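Genes in the chromosomal regions of 2 of the inhibitor genes were looked at from lists of 5 and 10 genes. Next to CDKN2A, MTAP, which encodes an enzyme of methionine salvage, was the 1 neighbour in the table. It had 80.8, 73.2 and 66 normalized reads with DMSO and 28.3, 18.8 and 40.8 with mitoxantrone, or -1.32 ± 0.27 (standard error) on the log2 scale (adjusted p 4.0e-03, edgeR quasi-likelihood test), so both genes of this pair were lower with mitoxantrone. MTAP was barely expressed, with mean FPKM of 0.59 with DMSO and 0.223 with mitoxantrone. It had 242 and 81 reads in total in these groups, and its coefficient of variation with mitoxantrone was 37.8%. In the wider region of CDKN1C, at a distance not worked out here, the imprinted non-coding gene H19 was the 1 gene of its list in the table. It fell from 12373 ± 1834 to 1790.5 ± 37.2 normalized reads (SD, n = 3 each), a log2 fold change of -2.79. The remaining genes of both lists were not analysed here, so whether these regions moved as a whole was not tested.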
